A study of Mus musculus with 4 samples.

Results

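The proteasome genes of lung γδ T cells are described here in 2 libraries from Aire-/- mice and 2 from Aire+/+ mice. Members were the rows of the count table whose symbol is Psm followed by a letter from a to g and a number, which gave 50 of 22865 gene symbols. Of these, 14 encode the standard 20S core, 17 the 19S regulator, and 5 the immunoproteasome (the immunosubunits Psmb8, Psmb9 and Psmb10 and the activator subunits Psme1 and Psme2). A further 12 are tissue-restricted core subunits, other activators, an inhibitor and assembly chaperones. The remaining 2 match the rule but are no subunit of the particle: Psmc3ip, a partner of the meiotic recombinases, and Psme2b, whose transcript is 99.4% identical to that of Psme2 over 794 bases.

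The proteasome degrades proteins tagged with ubiquitin. Its core is a barrel of rings made from alpha and beta subunits, in which 3 of the beta subunits (Psmb5, Psmb6, Psmb7) carry the cutting sites, and the 19S regulator on its ends recognises, unfolds and feeds in the substrate. In cells of the immune system and in cells exposed to interferon-γ, Psmb8, Psmb9 and Psmb10 are built into new particles in place of Psmb5, Psmb6 and Psmb7, and the resulting immunoproteasome favours peptides that fit class I molecules. The PA28 cap made from Psme1 and Psme2 is induced by the same cytokine.

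Both genotypes were C57Bl/6 females aged 10 weeks. Viable lung cells had been sorted as CD45+ TCRb- TCRgd+ CD27- and negative for Vg1, Vg2, Vg4 and Vg5, and each Smart-Seq2 library (full-length cDNA from very few cells) came from 500 cells of what the submitters call Tgd17, γδ T cells that make interleukin-17. Aire is the thymic regulator of tissue-restricted gene display, and the mutant allele is given only as Aire-/-. Whether the libraries of a genotype came from separate animals is not given in the sources used here, and p-values therefore reflect how far these libraries spread, which may be technical. Total counts were 1144060 and 1106891 in Aire-/- libraries and 1265239 and 1153344 in Aire+/+ libraries. Aire had 0 counts in all 4 libraries, which allows up to 2.62 and 2.71 CPM (the count scaled to library size) in Aire-/- and 2.37 and 2.60 CPM in Aire+/+ libraries, so it checked no label. The CD3 chains had 1242 to 1791 counts per library. The γδ receptor constant genes Tcrg-C1, Tcrg-C4 and Trdc had no row under these symbols, so the receptor itself was not checked. All 9 listed B cell markers were also present, and all 9 had a log2 fold change below 0 (median -0.47). They summed to 2712 and 2037 CPM in Aire-/- libraries and 4143 and 2615 CPM in Aire+/+ libraries. The 10 T cell markers found in the table all lay above 0 (median 0.36), with sums of 6727 and 7514 CPM in Aire-/- and 4634 and 6502 CPM in Aire+/+ libraries. Plasma cell markers summed to 330 and 437 CPM in Aire-/- and 1710 and 1117 CPM in Aire+/+ libraries. Most of that gap was Igj, the joining chain of secreted antibody, at 0 and 3.77 CPM in Aire-/- and 1353 and 708 CPM in Aire+/+ libraries, while of the other plasma cell markers Mzb1 (-0.99) and Prdm1 (-0.16) lay below 0 and Sdc1 (0.29) and Xbp1 (0.10) above. Macrophage and monocyte markers summed to 27.4 and 84.9 CPM in Aire-/- and 217 and 39.4 CPM in Aire+/+ libraries. The repeat transcript Rn45s took 20.4% and 19.4% of all counts in Aire-/- libraries, against 17.4% and 16.2% in Aire+/+ libraries.

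The start regions of 2 pairs of interchangeable subunits, Psmb8 with Psmb5 and Psmb9 with Psmb6, are shown because these genes carry the pattern described next. Psmb10 and Psmb7 carry it too, but Psmb7 had no RefSeq window and could not be searched, so this pair is not shown. The RefSeq starts differ from the outer ends of the GENCODE M21 genes, so that the stretches of Psmb8 and Psmb9 lie inside those gene spans and that of Psmb5 partly so. Each line gives the 150 bases before the RefSeq start on the strand of the gene (GRCm38.p6), at chr17:34198045-34198194 on the plus strand for Psmb8, chr14:54617996-54618145 on the minus strand for Psmb5, chr17:34187331-34187480 on the minus strand for Psmb9 and chr11:70525207-70525356 on the plus strand for Psmb6.
Psmb8: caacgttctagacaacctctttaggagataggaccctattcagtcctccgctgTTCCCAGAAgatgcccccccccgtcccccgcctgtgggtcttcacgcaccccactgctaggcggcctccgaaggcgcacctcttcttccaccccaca
Psmb5: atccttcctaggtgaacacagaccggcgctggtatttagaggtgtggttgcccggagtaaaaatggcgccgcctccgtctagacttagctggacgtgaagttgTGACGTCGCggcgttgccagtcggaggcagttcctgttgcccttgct
Psmb9: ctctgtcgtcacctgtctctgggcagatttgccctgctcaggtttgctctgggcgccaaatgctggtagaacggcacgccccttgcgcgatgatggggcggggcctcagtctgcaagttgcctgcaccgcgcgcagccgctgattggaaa
Psmb6: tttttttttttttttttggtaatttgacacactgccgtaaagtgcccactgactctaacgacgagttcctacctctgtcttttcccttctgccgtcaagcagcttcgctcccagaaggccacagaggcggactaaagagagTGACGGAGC
Capitals mark matches to 3 motifs searched on both strands in the 250 bases before each start. The letters were GAAA, any 2 bases and GAAA again for the interferon response element, TTCNNNGAA for the gamma activated site, and TGACNNNGC for the antioxidant response element to which the stress factors Nfe2l1 and Nfe2l2 bind. No gene shown holds more than 1 match, so none overlap. Psmb8 held TTCCCAGAA, a match to the gamma activated site, 97 to 89 bases before its start, and 7.02% of all 32851 RefSeq windows hold such a match. Of the 5 immunoproteasome genes 1, Psmb8, held it, against 8.13% of all genes with a window. Psmb5 held TGACGTCGC 47 to 39 bases before its start and Psmb6 TGACGGAGC directly before its start, both matches to the antioxidant response letters, which 10.2% of windows hold. Of the 5 immunoproteasome genes 0 had the interferon response letters in this window, against 3.46% of all 27025 genes with a window. At that share 0 of 5 is the usual outcome. Bases before other annotated starts of these genes were not searched. Windows were found for 42 of the 50 members. Among those of the core and the regulator the antioxidant response letters stood in 2 of 11 and 2 of 14, against 11.5% of all genes with a window. A match describes letters, not binding.

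These libraries of the 2 genotypes differed in the RNA balance of the interchangeable catalytic subunits. All 3 constitutive catalytic subunits were lower and all 3 immunosubunits higher in both Aire-/- libraries than in both Aire+/+ libraries, although none passed the test over all genes. With an adjusted p under 0.05 as the threshold, the quasi-likelihood test of edgeR found 0 (0%) of 9783 genes higher and 2 (0.0204%) lower in Aire-/- libraries, and 0 of the 48 tested members were among them. At an unadjusted p under 0.05, 0 members were higher and 1 was lower, where 2.8% and 2.77% of all genes were. DESeq2's Wald test and limma-voom also called 0 members. Among tested members, 12 (25%) were higher in each Aire-/- library than in either Aire+/+ library, against 17.1% of all genes, and 10 (20.8%) were lower in this way, against 17.3%. With 2 libraries against 2, an exact two-sided permutation test of a single value cannot go below p = 0.333.

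Psmb5, whose product makes the chymotrypsin-like cut after bulky residues, stood at 68.5 and 87.7 CPM in Aire-/- libraries, against 127 and 105 CPM in Aire+/+ libraries (CPM here are scaled by edgeR's TMM factors). The 2 genotypes did not overlap, and Psmb5 was the 1 member with an unadjusted p under 0.05. Its log2 fold change was -0.57 (approximate SE 0.25, adjusted p = 0.89, edgeR). Psmb7, the subunit of the trypsin-like site, had 34.7 and 44.3 CPM in Aire-/- and 51.7 and 67.6 CPM in Aire+/+ libraries (log2 fold change -0.59, SE 0.32, adjusted p = 0.91). Psmb6, the subunit of the caspase-like site, had 102 and 91.5 CPM in Aire-/- and 140 and 116 CPM in Aire+/+ libraries (log2 fold change -0.40, SE 0.24, adjusted p = 0.93). In all 3 the lowest Aire+/+ library was above the highest Aire-/- library. A processed pseudogene, Gm3375, matches Psmb5 at 98.9% over 796 bases, and Nek6 lies over Psmb7 on the opposite strand, so the counting could have shared reads between them.

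Psmb8, which takes the place of Psmb5, stood at 444 and 521 CPM in Aire-/- libraries against 424 and 396 CPM in Aire+/+ libraries. The 2 genotypes did not overlap, but the lower Aire-/- library was only slightly above the higher Aire+/+ one (log2 fold change 0.23, SE 0.18, adjusted p = 0.95, edgeR). Psmb10, which takes the place of Psmb7, stood at 89.5 and 105 CPM in Aire-/- and 72.7 and 75.3 CPM in Aire+/+ libraries. Of the 3 it had the largest log2 fold change, 0.39 (SE 0.25; adjusted p = 0.94, edgeR). Psmb9, which takes the place of Psmb6, stood at 69.4 and 86.8 CPM in Aire-/- and 63.0 and 67.6 CPM in Aire+/+ libraries (0.26, SE 0.27, adjusted p = 0.97). Psmb8 and Psmb9 lie beside the peptide transporter genes in the MHC region, at 34197721 to 34201454 and 34181987 to 34187764 of chromosome 17 (GRCm38). Psmb9 overlaps Tap1 on the opposite strand, and reads of the pair cannot be told apart where the counting ignored strand.

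**Figure D1:**
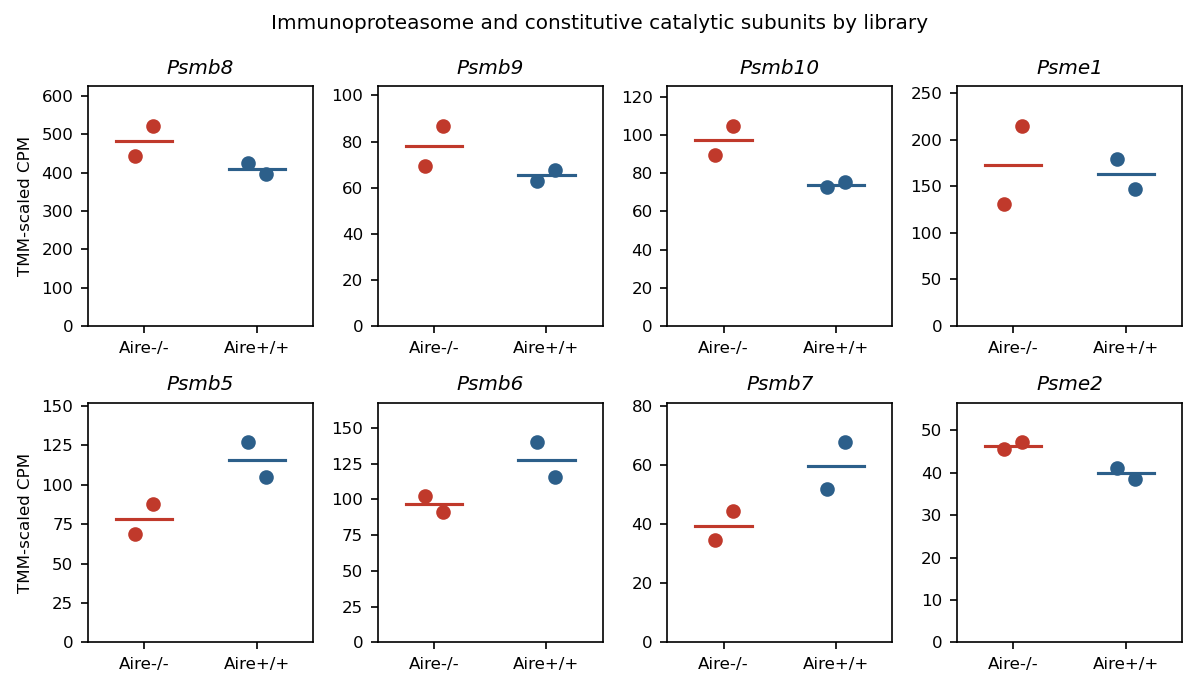
TMM-scaled CPM (vertical axis, from 0) of the 3 immunosubunits and Psme1 (upper row) and of the 3 constitutive catalytic subunits and Psme2 (lower row), 1 point per library and a line at the mean of each genotype. Both Aire-/- points lie below both Aire+/+ points for Psmb5, Psmb6 and Psmb7 and above them for Psmb8, Psmb9, Psmb10 and Psme2, while those of Psme1 overlap.

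The balance within each pair was compared per transcript length, as the immunosubunit's share of the summed level of both partners. Psmb8 made up 78.2% (Wilson 95% interval 73.7 to 82.0) and 76.7% (72.5 to 80.3) of its pair with Psmb5 in Aire-/- libraries, and 64.9% (60.7 to 68.8) and 67.5% (63.0 to 71.7) in Aire+/+ libraries. Intervals cover counting error only, and reads of such libraries are not independent molecules. The mean share was 77.4% ± 1.06 in Aire-/- and 66.2% ± 1.87 in Aire+/+ libraries (SD, n = 2 each), a difference of 11.2 percentage points. Psmb10 made up 69.5% (61.1 to 76.8) and 67.6% (59.8 to 74.6) of its pair with Psmb7 in Aire-/- libraries, and 55.4% (47.5 to 63.1) and 49.6% (42.1 to 57.2) in Aire+/+ libraries. Psmb9 was below Psmb6 per transcript length in all 4 libraries, at 28.6% (23.1 to 34.9) and 35.9% (29.6 to 42.7) in Aire-/- and 21% (16.9 to 25.8) and 25.7% (20.8 to 31.3) in Aire+/+ libraries. Per coding length, Psmb9 made up 42.4% and 50.8% of this pair in Aire-/- and 32.9% and 38.9% in Aire+/+ libraries. The genotypes did not overlap in any of the 3 pairs by either length. That order was fixed once each immunosubunit lay higher and each constitutive partner lower without overlap, and a fixed length cannot change it. It is therefore no result beyond those of the single genes. Per transcript length the intervals of single libraries overlapped for Psmb9, and for Psmb10 those of Aire-/- libraries met that of Aire+/+ library 1.

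Summed over the 3 pairs, immunosubunit RNA made up 62.6% and 65.0% of the catalytic subunit RNA per transcript length in Aire-/- libraries. In Aire+/+ libraries it made up 50.1% and 52.3%. Protein and assembled particles were not measured. The difference of the means was 12.6 percentage points, where libraries of 1 genotype differed with SDs of 1.67 in Aire-/- and 1.53 in Aire+/+. In raw counts, immunosubunits had 2.93 and 3.19 times the counts of the constitutive catalytic subunits in Aire-/- libraries, and 1.76 and 1.87 times in Aire+/+ libraries. That the genotypes do not overlap in the summed share and in the count ratio follows from the values of the 6 genes. No p is given for this share, since the 6 genes were singled out with results of these libraries known. In these sorted pools, fewer cells of a type and less RNA per cell cannot be told apart. Aire+/+ library 1 held the most B cell RNA, with 2.08 times as many counts of Ms4a1, Cd79a and Cd79b as of the CD3 chains, against 0.985 and 0.681 times in Aire-/- libraries and 0.873 times in Aire+/+ library 2. Without Aire+/+ library 1 the difference in the summed share was 11.5 percentage points, with a single Aire+/+ library left, which also held Igj at 708 CPM. The part of other cells in the difference was not tested.

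**Figure D2:**
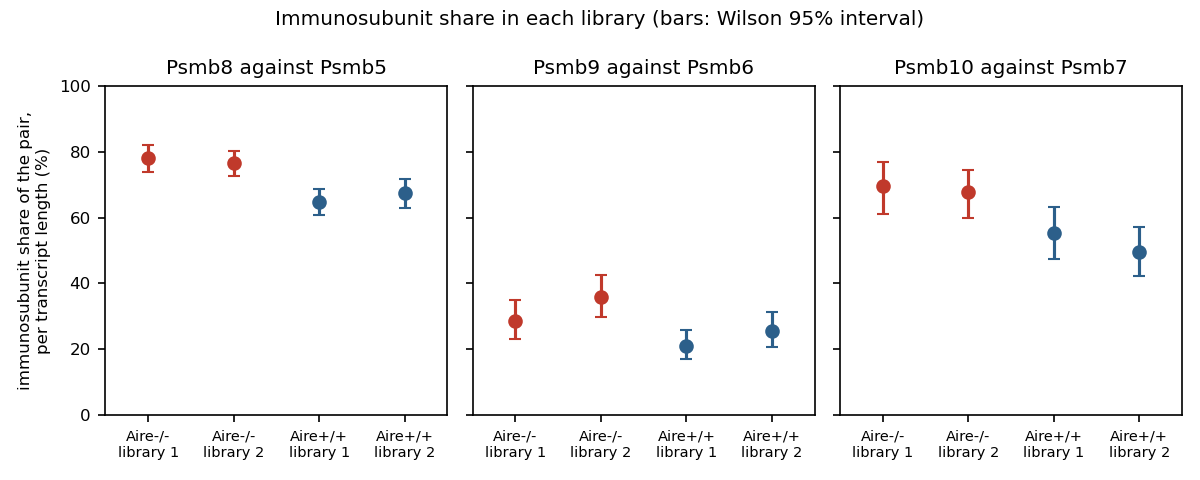
Share of the immunosubunit in each of 3 interchangeable pairs (vertical axis, percent of the summed level per transcript length), 1 point per library with its Wilson 95% interval, Aire-/- libraries in red and Aire+/+ libraries in blue. Shares of the Aire-/- libraries lie above those of the Aire+/+ libraries in every pair, at 78.2% and 76.7% against 64.9% and 67.5% for Psmb8 with Psmb5. This order follows from the values of the single genes.

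The PA28 subunits separated the genotypes in 1 of 2 cases, where 17.1% of all genes were higher and 17.3% lower in this way. A count over 2 genes cannot be set apart from these shares. Psme2, the beta chain of PA28, stood at 45.7 and 47.1 CPM in Aire-/- and 41.2 and 38.5 CPM in Aire+/+ libraries, without overlap (log2 fold change 0.22, SE 0.32, adjusted p = 0.98, edgeR). Its alpha chain Psme1 stood at 131 and 215 CPM in Aire-/- and 179 and 147 CPM in Aire+/+ libraries, so that the 2 Aire-/- values enclosed both others. The log2 fold change of Psme1 was 0.08 (SE 0.26) and turned to -0.33 without Aire-/- library 2 and -0.06 without Aire+/+ library 2. Counts of Psme2b, the near copy of Psme2, were 12 and 6 in Aire-/- libraries, against 12 and 5 in Aire+/+ libraries. The 5 immunoproteasome genes together all lay above 0, where 50.9% of all genes did, and their median was 0.23 on the log2 scale against 0.01 over all genes. They summed to 779 and 975 CPM in Aire-/- and 781 and 725 CPM in Aire+/+ libraries, so the sums of the genotypes overlapped. Without Aire-/- library 2 the median was 0.11, and 0.40 without Aire-/- library 1.

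Of the 14 standard core genes 12, the 3 constitutive catalytic ones included, had a log2 fold change below 0, and the median was -0.19, where 49.1% of all genes lay below 0. In 7 of the 14 each Aire-/- library was below either Aire+/+ library, against 17.3% of all genes, and in 1 it was above, against 17.1%. The 14 summed to 1758 and 1891 CPM in Aire-/- libraries, against 2047 and 2137 CPM in Aire+/+ libraries, a ratio of 0.872 with no overlap. Among the non-catalytic beta subunits, Psmb4 had 74.9 and 101 CPM in Aire-/- and 118 and 112 CPM in Aire+/+ libraries (log2 fold change -0.39, SE 0.25). Psmb1 had 236 and 257 CPM in Aire-/- and 270 and 347 CPM in Aire+/+ libraries (-0.32, SE 0.21). Both are structural subunits of the beta ring, and their genotypes did not overlap, whereas those of Psmb2 (-0.14) and Psmb3 (-0.15) did.

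The alpha ring, which forms the gate of the barrel, had a median of -0.13 over 7 genes, nearer to 0 than the non-catalytic (-0.23) and catalytic (-0.57) beta groups, and its log2 fold changes ran from -0.21 to 0.48. Its summed level was 1039 and 1079 CPM in Aire-/- and 1116 and 1135 CPM in Aire+/+ libraries. Psma4, which with Psma7 made up the 2 core genes above 0, stood at 100 and 108 CPM in Aire-/- and 64.6 and 84.7 CPM in Aire+/+ libraries (log2 fold change 0.48, SE 0.25, adjusted p = 0.91, edgeR). A processed pseudogene, Gm6542, matches Psma4 at 96.8% over 783 bases, so its count may hold reads of both. Psma3 stood at 198 and 259 CPM in Aire-/- and 291 and 240 CPM in Aire+/+ libraries, which overlapped (-0.21, SE 0.22). Psma1 stood at 215 and 203 CPM in Aire-/- and 220 and 238 CPM in Aire+/+ libraries (-0.13, SE 0.20). Psma1 and Psma2 (-0.20) were lower without overlap, and Psma5 (-0.06), Psma6 (-0.17) and Psma7 (0.03) overlapped.

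Of the 17 regulator genes that the symbol rule took in, 10 lay above 0 and 7 below, and the median was 0.05 on the log2 scale. They summed to 1945 and 1901 CPM in Aire-/- and 1875 and 1784 CPM in Aire+/+ libraries, without overlap. The rule missed the 19S genes Adrm1 (-0.52) and Shfm1 (-0.14), both lower in Aire-/- libraries without overlap. Values of the class therefore cover only part of the regulator. The median of the 17 was -0.083 without Aire-/- library 2 and -0.011 without Aire+/+ library 1. Psmd14, the deubiquitinase that removes the ubiquitin chain before degradation, stood at 156 and 144 CPM in Aire-/- and 116 and 111 CPM in Aire+/+ libraries (0.41, SE 0.22, adjusted p = 0.91, edgeR). Psmd2, the large scaffold subunit of the base, stood at 206 and 218 CPM in Aire-/- and 174 and 154 CPM in Aire+/+ libraries (0.37, SE 0.21, adjusted p = 0.92). These 2, with Psmc6 (0.32) and Psmd8 (0.13), were the 4 of the 17 that lay higher without overlap. Psmc4 (-0.18), Psmd6 (-0.13) and Psmd12 (-0.28) were the 3 of the 17 that lay lower without overlap. These counts are near the shares over all genes, 17.1% higher and 17.3% lower. A transcribed pseudogene, Gm5422, matches Psmd2 at 96.4% over 2726 bases. The 6 ATPases, the ring that unfolds the substrate, ran from -0.26 for Psmc3 to 0.32 for Psmc6. Psmc6 stood at 111 and 141 CPM in Aire-/- and 107 and 95.8 CPM in Aire+/+ libraries, and Psmc3 at 134 and 104 CPM in Aire-/- and 156 and 129 CPM in Aire+/+ libraries. The ubiquitin receptor Psmd4 stood at 155 and 167 CPM in Aire-/- and 166 and 163 CPM in Aire+/+ libraries, with overlap (-0.03, SE 0.21). The remaining members Psmc1, Psmc2, Psmc5, Psmd1, Psmd3, Psmd7, Psmd11 and Psmd13 overlapped between genotypes. Summed counts of the core were 0.904 and 0.994 times those of the 17 regulator genes in Aire-/- libraries, against 1.09 and 1.2 times in Aire+/+ libraries, without overlap.

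**Figure D3:**
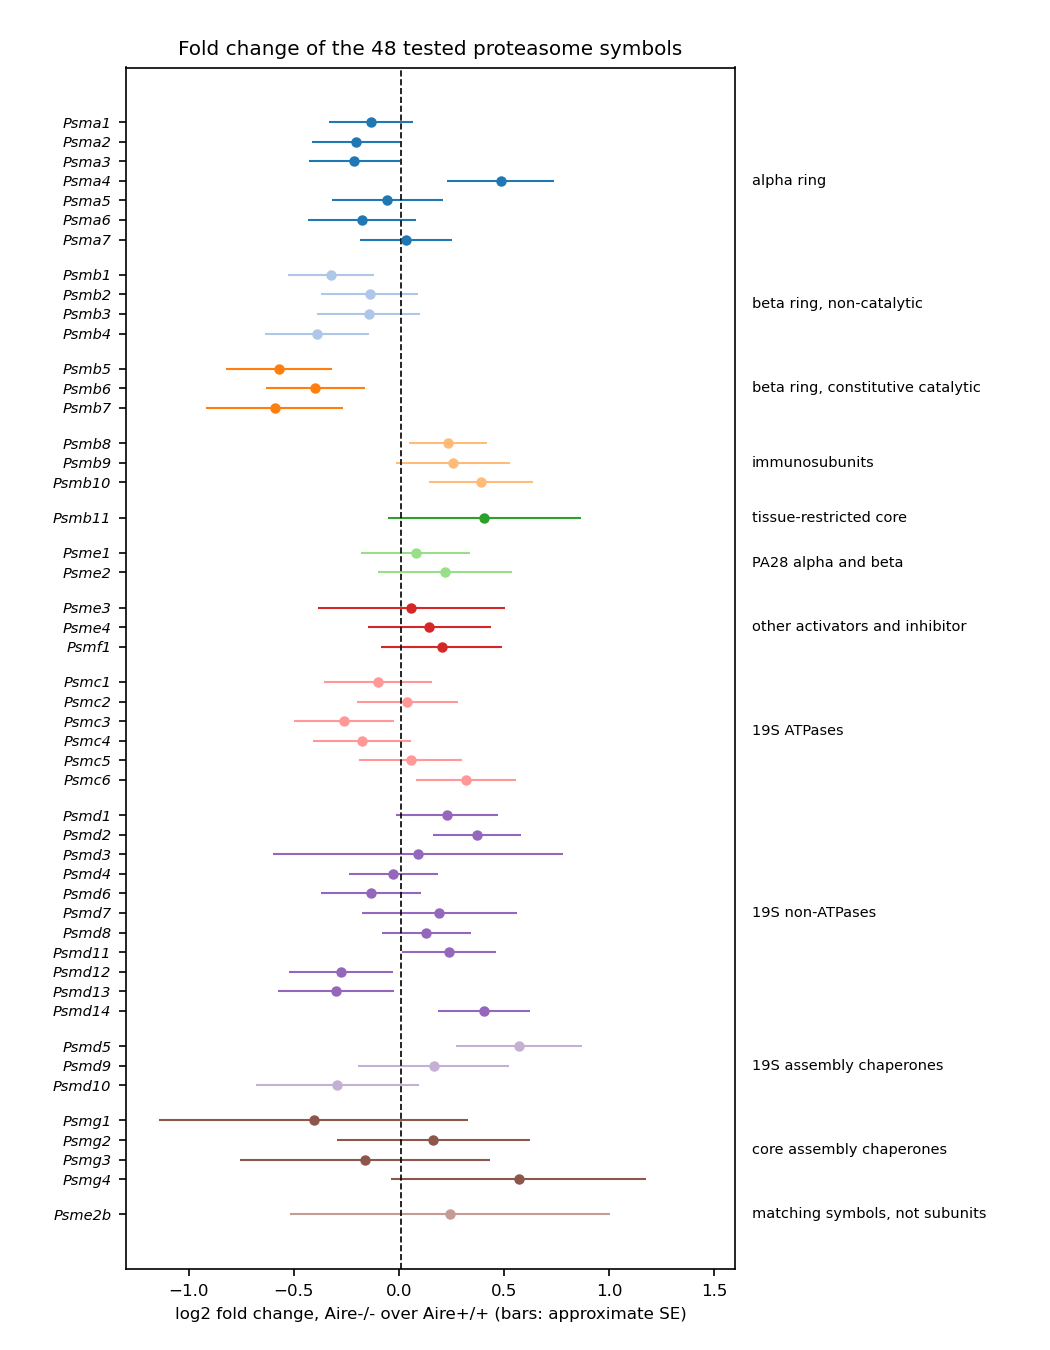
Log2 fold change of the 48 tested members (horizontal axis, Aire-/- over Aire+/+, with the approximate SE as bars), grouped by class from top to bottom, with a dashed line at the median of all tested genes, 0.01. The 3 constitutive catalytic subunits lie left of the line, between -0.59 and -0.40, and the 3 immunosubunits right of it, between 0.23 and 0.39, with no member past the test.

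Of the assembly factors, 1 of 3 regulator chaperones and 1 of 4 core chaperones separated the genotypes, both higher in Aire-/- libraries. By the same rule 17.1% of all genes were higher and 17.3% lower, and so few chaperones cannot be set apart from these shares. Psmd5, a chaperone that holds part of the regulator base before it joins the core, had the largest positive fold change of all members, at 76.7 and 65.1 CPM in Aire-/- and 54.1 and 41.1 CPM in Aire+/+ libraries (log2 fold change 0.57, SE 0.30, adjusted p = 0.91, edgeR). The genotypes did not overlap. Its partner chaperones Psmd9 (0.17) and Psmd10 (-0.29) overlapped, and Psmd10, at 21 and 41.5 CPM in Aire-/- and 36.4 and 40.2 CPM in Aire+/+ libraries, had 1 low Aire-/- library, without which its log2 fold change was 0.12. The core chaperones Psmg1, Psmg2, Psmg3 and Psmg4, which order the alpha ring, had 5 to 38 counts per library and log2 fold changes from -0.41 to 0.57. Psmg4 was at 11 and 17 counts in Aire-/- libraries, against 10 and 11 in Aire+/+ libraries. Psmg1 was at 5 and 11 counts in Aire-/- libraries, against 17 and 7 in Aire+/+ libraries, and Psmg2 at 17 and 38 counts in Aire-/- libraries, against 27 and 28 in Aire+/+ libraries. Psmf1, the inhibitor PI31, stood at 59.4 and 68.8 CPM in Aire-/- and 59.0 and 52.2 CPM in Aire+/+ libraries (0.20, SE 0.29). The nuclear cap gene Psme3 had 18.3 and 21.7 CPM in Aire-/- and 17.0 and 21.4 CPM in Aire+/+ libraries (0.06), and Psme4, the large single-chain activator PA200, had 62.1 and 55.6 CPM in Aire-/- and 50.1 and 56.5 CPM in Aire+/+ libraries (0.14). Psma8, the alpha subunit of the testis, was at 0 and 3 counts in Aire-/- libraries, against 1 and 0 in Aire+/+ libraries. Psmc3ip was at 7 and 1 counts in Aire-/- libraries, against 7 and 5 in Aire+/+ libraries. These 2 did not pass the filter on low counts.

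Per kb of transcript, Psmb8 stood above every other member, at 296 ± 33.7 CPM per kb in Aire-/- and 252 ± 12.2 CPM per kb in Aire+/+ libraries (SD, n = 2 each). It ranked 188 of the 9351 tested genes that had a length, where the median gene was at 11.9 CPM per kb. Psmb10 (74.1 ± 8.17 in Aire-/- and 56.5 ± 1.38 in Aire+/+) and Psmb9 (57.8 ± 9.07 in Aire-/- and 48.3 ± 2.39 in Aire+/+ CPM per kb) were at the level of the 19S subunits by transcript length. Averaged over the 4 libraries, Psmb8 was 5.17-fold above Psmb9 per kb. Among constitutive catalytic subunits Psmb7 was lowest, at 42.7 CPM per kb, against 108 for Psmb5 and 141 for Psmb6. The 6 ATPases lay within 1.57-fold (51.0 to 79.9 CPM per kb), and the alpha ring spanned 2.99-fold, from Psma2 at 60.9 to Psma1 at 182 CPM per kb. Per kb of coding sequence the ATPases lay within 1.6-fold and the alpha ring within 2.82-fold, but there its lowest gene was Psma4 (114) and its highest Psma3 (323). On that scale Psmb10 (104) and Psmb9 (109) lay above all 6 ATPases (61.6 to 98.6) and below Psmd8 (150), the highest of the 17 regulator genes. The core chaperones ran from 8.30 to 22.9 and the regulator chaperones from 13.5 to 24.3 CPM per kb, below all standard subunits but Psmd3 on the transcript scale.

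**Figure D4:**
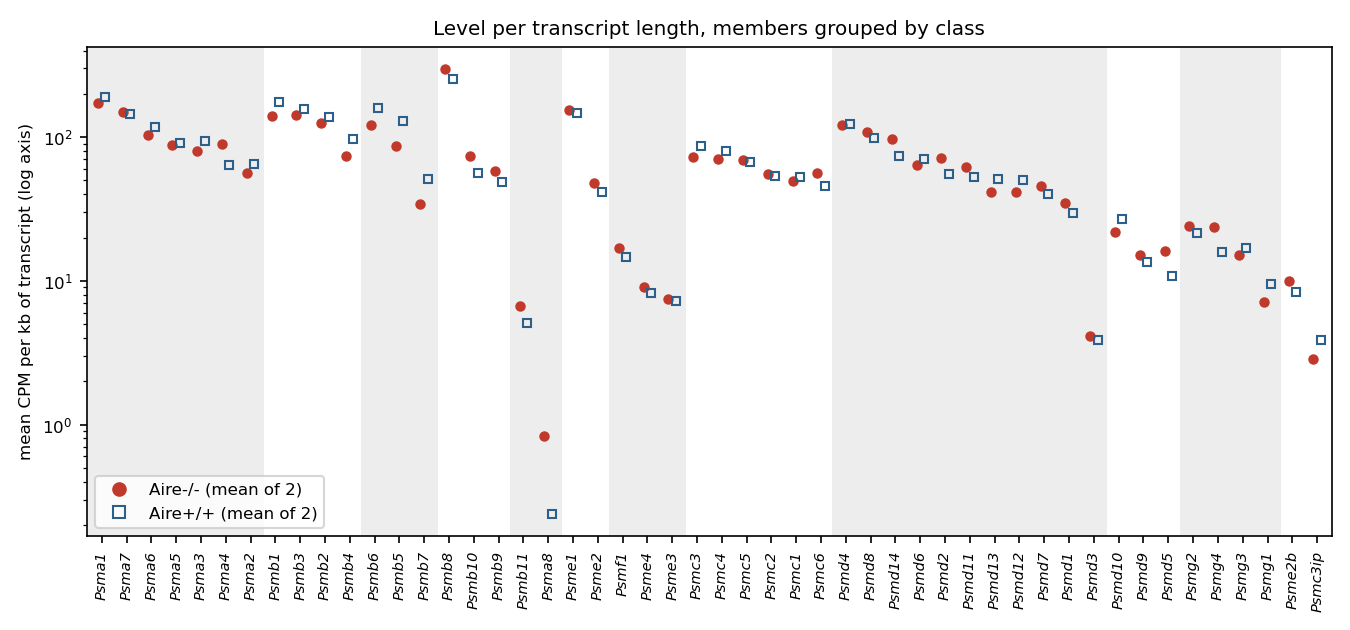
Mean CPM per kb of transcript (vertical log axis) for all 50 members, ordered by level within each class and shaded by class, for Aire-/- (filled circles) and Aire+/+ (open squares), each the mean of 2 libraries. Psmb8 is the highest point in both genotypes at 296 and 252 CPM per kb, and Psmd3 and the tissue-restricted Psma8 and Psmb11 lie far below the standard subunits.

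Genes that work with the proteasome were taken from 3 lists, and 0 of their members passed the test over all genes. Among 28 tested partners (ubiquitin genes, shuttle factors, deubiquitinases and the transcription factors of proteasome genes) 10 lay above 0 and 18 below. Over all genes 50.9% lay above and 49.1% below, and the median of the partners was -0.08 on the log2 scale. Without overlap, 2 partners (7.14%) lay higher and 8 (28.6%) lower in Aire-/- libraries, against 17.1% and 17.3% of all genes. The smallest p belonged to Adrm1, the ubiquitin receptor of the 19S base, at 65 and 57 counts in Aire-/- and 92 and 103 counts in Aire+/+ libraries (-0.52, SE 0.27, adjusted p = 0.91, edgeR). Nploc4 (0.61) and Ufd1l (-0.36), cofactors of the segregase Vcp, and the fused ubiquitin gene Rps27a (-0.21) followed. Pomp, the maturation factor of the core that immunoproteasome assembly uses heavily, had a log2 fold change of -0.08, a value picked after it was seen. Of the antioxidant response factors, Nfe2l1 stood at -0.08 and Nfe2l2 at -0.32, also picked in that way.

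In the class I presentation list 16 of 19 tested genes were above 0 (median 0.27 on the log2 scale), against 50.9% of all genes, and 11 lay higher in Aire-/- libraries without overlap, against 17.1%. The 4 with the smallest p were Ide, a metalloprotease that degrades insulin (0.83, SE 0.24, adjusted p = 0.78, edgeR), Nlrc5, the transactivator of class I genes (0.78, SE 0.27, adjusted p = 0.89), the class I heavy chain H2-K1 (0.45, SE 0.16, adjusted p = 0.89) and the peptidase Tpp2 (0.38, SE 0.20, adjusted p = 0.91). Nlrc5 had 116 and 167 counts in Aire-/- and 84 and 100 counts in Aire+/+ libraries. Of the transporter genes next to Psmb8 and Psmb9, Tap1 was at 263 and 310 counts in Aire-/- libraries, against 234 and 294 in Aire+/+ libraries, with overlap (0.27), and Tap2 stood at 0.11. Both were picked after their values were seen. Of the 14 regulators responsive to interferon-γ 9 lay above 0, against 50.9% of all genes, with a median of 0.30. The 5 below 0 were Socs1 (-0.74), Irf8 (-0.60), Ciita (-0.57), Stat2 (-0.15) and Irf9 (-0.03), so the list did not move in 1 direction. Ifi47 (1.21), Ifngr1 (0.89), Irgm1 (1.07) and Gbp2 (1.12) had the smallest p, with adjusted p from 0.61 to 0.78. Irf1, a transcription factor induced by interferon-γ, stood at 0.57 (SE 0.23, adjusted p = 0.89, edgeR) and was picked after its value was seen. It had 188 and 221 counts in Aire-/- and 175 and 134 counts in Aire+/+ libraries. The part of these genes in the subunit balance was not tested.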

How the data were processed

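RNA was measured in 4 lung γδ T cell libraries. The authors deposited whole-number counts for each gene symbol in a single table, per the file headers. The submitters' processing notes name TopHat2 2.0.10, Cufflinks 2.2.1 and mm10, with no role. How reads were assigned, and whether strand was used, is not given in the sources used here. Here edgeR 4.0.16 (R 4.3.3) was run with TMM scaling, filterByExpr (minimum count 10, minimum total 15), a quasi-likelihood F test on genotype over all 4 libraries and Benjamini-Hochberg adjustment over 9783 genes. An approximate SE was taken as the size of the log2 fold change over the square root of its F. Alternatives used DESeq2 1.42.0, limma 3.58.1, other scalings and filters, the replicate number as a block, and each library left out. The steps were tested on simulated data.

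Lengths are of the APPRIS principal transcript in GENCODE M21 (GRCm38, 21591 of 22865 symbols, all 50 members). Copies were sought with blastn 2.17.0 (at least 95% identity over at least 100 bases) and found for 11 members, and 19 members overlap a gene on the opposite strand. Promoter windows are from RefSeq (GRCm38.p6). Members, classes and lists were chosen with earlier results of these data known. Values per library are given for the catalytic, PA28 and other cap subunits, for the 2 members with the smallest p and the 1 with the highest level per kb in each class, and statistics for up to 4 genes with the smallest p in each companion list.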

Additional observations from a re-analysis of the deposited data

How the results depend on the processing

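Under the 13 other fits and at an adjusted p under 0.1, the count of members called stayed at 0 in each direction. Over all genes, calls higher numbered 0 and calls lower 2, and with no filter 21 and 26. Limma-voom called 1 lower. Leaving out 1 library gave 5 to 21 higher and 6 to 42 lower. The replicate block gave 2 higher and 4 lower and 0 members, and same-numbered libraries did not deviate together (r = -0.08 across 9783 genes), so the numbers are not taken as pairs. The median of the regulator was 0.017 with upper-quartile scaling. Without 1 library, medians ran from -0.29 to -0.14 for the core, -0.083 to 0.039 for the regulator and 0.11 to 0.40 for the immunoproteasome, whose summed log2 ratio ran from 0.047 to 0.38. The difference in immunosubunit share over the 3 pairs was 10.9 percentage points with no length correction and 11.4 to 13.8 without 1 library. Psmb5, Psmb6, Psmb7, Psmb8, Psmb9 and Psmb10 kept their direction in all 13 fits. Their genotypes do not overlap, so leaving out 1 library could hardly turn them, and the kept direction adds no support. Without Aire-/- library 2 Psmb8 was at 0.11 (0.23 with all 4) and Psmb9 at 0.086 (0.26 with all 4). Psmb6 was at -0.26 without Aire+/+ library 1 (-0.40 with all 4) and Psmb7 at -0.39 without Aire+/+ library 2 (-0.59 with all 4). Of 48 members, 20 turned direction in at least 1 fit without 1 library. The 8 of these given with all library values ranged from -0.34 to 0.89 for Psmb11, -0.33 to 0.40 for Psme1, -0.11 to 0.23 for Psme3, -0.083 to 0.030 for Psmd4, -0.86 to 0.12 for Psmd10, -1.10 to 0.30 for Psmg1, -0.56 to 0.65 for Psmg2 and -0.30 to 0.93 for Psme2b, and the other 12 were Psma5, Psma6, Psma7, Psmb3, Psmc1, Psmc2, Psmc5, Psmd3, Psmd7, Psmd9, Psmd13 and Psmg3. The cause was not tested. Fits without 1 library assume that the lone library of a genotype varies like the other pair. At this depth Psma8 and Psmc3ip did not pass the filter.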

Other observations

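Psmb11 encodes the thymus-specific beta5t, known from cortical thymic epithelium, and had 44 and 18 counts in Aire-/- and 27 and 25 counts in Aire+/+ libraries. The log2 fold change was 0.40 (SE 0.46) and -0.34 without Aire-/- library 1. Of 3 listed thymocyte genes, Rag2 had 17 and 5 counts in Aire-/- and 15 and 12 counts in Aire+/+ libraries. Rag1 had 3 to 5 counts per library, and Dntt had 0 counts in 3 libraries and 1 in the remaining one. Transcripts of Psmb11 share stretches of at least 100 bases at 95% identity or more with 41 other genes, and which part of the gene the reads came from was not tested.

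Psmd3, an essential subunit of the 19S lid, had 7 and 12 counts in Aire-/- and 12 and 8 counts in Aire+/+ libraries. Its level of 3.99 CPM per kb was far under that of the next lowest regulator gene, Psmd1, at 32.3 CPM per kb, and 0 near copies were found for it. Psmd7, another lid subunit, differed more within genotypes than between them, with 103 and 53 counts in Aire-/- and 55 and 96 counts in Aire+/+ libraries.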
